A study of Homo sapiens with 6 samples.

Results

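The clustered histone genes are the genes whose symbols begin with HIST1H, HIST2H, HIST3H or HIST4H, and they were chosen by this form of the symbol alone. The gene table of the 2 HCT116 lines compared here holds 18236 genes, and 43 of them had such a symbol: 2 coded for linker histone H1, 10 for H2A, 14 for H2B, 7 for H3 and 10 for H4. HCT116 is a colorectal cancer cell line. The mutant samples (HCT116-CTNNB1-/Δ45) came from cells in which the wild-type allele of CTNNB1 (the β-catenin gene) was disrupted, so that the allele with the stabilizing deletion was left. The wild-type samples (HCT116-CTNNB1 WT/-) came from cells whose mutant allele was disrupted. Both lines thus carried 1 disrupted allele and were kept in the same medium, and 3 replicates of each were sequenced. Each genotype is represented by 1 derived line, so a difference between derivatives and a difference of genotype cannot be told apart. Whether replicates were grown as separate cultures is not labelled, and the p-values then describe the spread among these 6 samples, part or all of which may be technical.

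Histones package DNA into nucleosomes, each built from H2A, H2B, H3 and H4, with H1 bound to the linker between nucleosomes. The clustered genes are known as replication-dependent histone genes, since most are transcribed in S phase to package newly copied DNA. They lie in dense groups, of which the largest, HIST1, is on chromosome 6, while HIST2 and HIST3 are on chromosome 1. Many H2A and H2B genes of these groups start back to back and share the DNA between them as promoter. Their mRNAs are the known exception to polyadenylation: the message usually ends just after a stem-loop that is bound by the protein SLBP and cut with the help of U7 RNA. Some of the genes can also give spliced or extended polyadenylated transcripts, for instance in differentiated cells.

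The stem-loops are shown because they define the class and because the members differ in how far their annotated transcripts run past them. Of the 43 genes, 41 were matched to GENCODE 44 on GRCh37, the build of the authors' hg19 mapping. All 40 of these with a coding sequence had a match to a 16-base histone stem-loop motif, searched on the coding strand within 100 bases after the coding end. The pseudogene HIST2H2BC was not searched, and HIST1H2BF and HIST1H2BG had no position. In the sequences below, read 5′ to 3′ on the strand of the gene, capitals mark the letters that the motif fixes, and lower case letters were free. The first form was found in 21 genes, among them HIST2H2BE (chr1:149857738-149857753, minus strand) and HIST1H1C (chr6:26055972-26055987, minus strand). The HIST1H2BK form (chr6:27114145-27114160, minus strand) was found in 5 genes, including HIST1H2BD and HIST1H2BJ, and the HIST1H4E form (chr6:26205229-26205244, plus strand) in 8 genes, all of them for H4.
HIST2H2BE: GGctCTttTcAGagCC
HIST1H2BK: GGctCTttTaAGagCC
HIST1H4E: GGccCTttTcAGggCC

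The extraction protocol describes Ribo-Zero depletion of ribosomal RNA from total RNA, whereas the labels give polyA RNA as the molecule. Which applies was not settled, and it bears on the level at which messages without a polyA tail can be seen. The deposited values are gene counts divided by a size factor for each sample, called normalized counts below. The recovered depth was 57.9, 33.5 and 35.2 M reads in genes for the mutant and 29.5, 41.4 and 21.8 M for the wild-type samples. Over all genes, replicate 1 of each line stood apart. The SD of the log2 differences between mutant 1 and wild-type 1 was 0.515, below those of mutant 1 against mutant 2 and 3 (0.838 and 0.848) and of wild-type 1 against wild-type 2 and 3 (0.666 and 0.737). Results are therefore also given without these libraries. CTNNB1 itself did not pass the test (log2 fold change 0.35 ± 0.18 (SE), limma adjusted p = 0.15, exact two-sided permutation p = 0.3 where 0.1 is the smallest possible), and because the stabilizing deletion leaves the transcript otherwise intact, its level does not check the labels. The lists of epithelial, fibroblast, leukocyte and endothelial markers had 0 genes called higher and 3, 1, 1 and 1 called lower of 9, 3, 2 and 2 tested, the leukocyte call being CD68. Of all genes tested, 17.3% were called higher and 10.0% lower. The summed epithelial markers had 47633 to 52130 normalized counts in the mutant and 61333 to 64528 in the wild-type samples, the fibroblast markers 1980 to 4479 and 3583 to 4709, the leukocyte markers 731 to 1301 and 3353 to 5282, and the endothelial markers 69.0 to 89.8 and 120 to 153. The defining leukocyte marker PTPRC stayed at or under 4.43 normalized counts in every sample. The part of these markers in the histone results was not tested.

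The clustered histone genes made up a small share of the RNA in both lines and a smaller one in the mutant line. Their summed level was 36.7, 18.7 and 23.5 per M normalized counts in the mutant samples, against 71.0, 124 and 132 per M in the wild-type samples. The groups did not overlap, and mutant 1 and wild-type 1 lay nearest to each other. The sum rested mostly on a few genes, since the 7 with the highest mean held 72.1% to 90.3% of it in each sample. H2B genes carried the largest part, with sums of 813, 457 and 533 normalized counts in the mutant samples, against 1617, 3065 and 3142 in the wild-type samples. For H1 the sums were 159, 69.7 and 102 in the mutant samples, against 448, 546 and 699 in the wild-type samples. The sums for H3 were far smaller in both lines (28.5 to 44.6 in the mutant and 51.6 to 94.2 in the wild-type samples), and for H4 they lay between 14.4 and 36.1 in the mutant and between 23.3 and 25.8 in the wild-type samples, with overlap. Fewer transcripts per cell and fewer cells that express a gene cannot be told apart in bulk RNA.

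**Figure D1:**
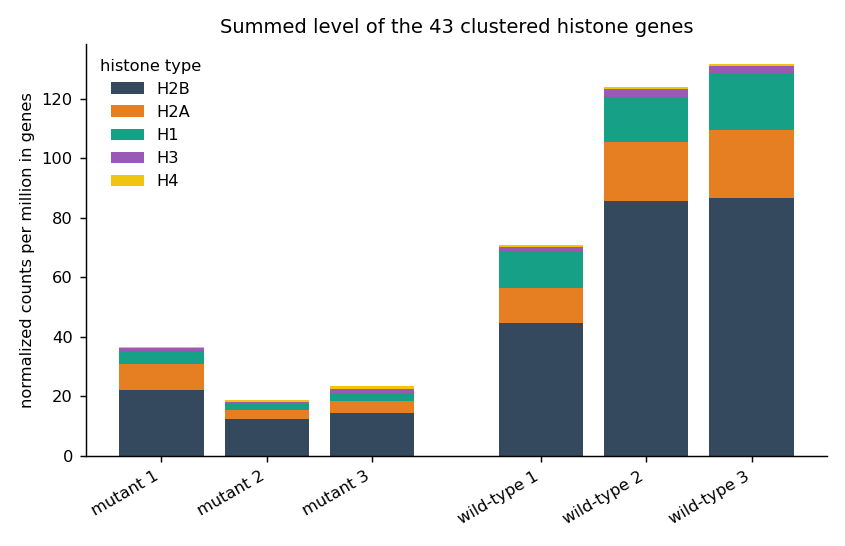
Summed normalized counts of the 43 clustered histone genes per M normalized counts in genes (linear axis from 0), as stacked bars by histone type for each mutant and wild-type sample. The mutant bars reach 18.7 to 36.7 and the wild-type bars 71.0 to 132, and H2B takes the largest part of each bar.

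Of the 43 genes, 17 averaged 10 or more normalized counts and were tested, and 11 of them were called lower in the mutant line, 0 higher (limma, adjusted p under 0.05 over 14539 genes, and 0 higher also at an unadjusted p under 0.05). Over all genes tested, 10.0% were called lower and 17.3% higher. By type, 1 of 2 H1, 2 of 3 H2A, 7 of 9 H2B and 1 of 3 H3 genes fell, and no H4 gene reached the level needed for a test. A call with a decrease of more than 2 on the log2 scale was made for 9 of the 17 genes, against 2.08% of all genes. The median log2 fold change of the 17 genes was -2.03, beside 0.24 for all genes. Rescaling by TMM factors moved the median of all genes to 0.01 and that of the histone genes to -2.24, with 12 called lower and 0 higher. Over all genes that rescaling gave 2163 higher (14.9%) and 2110 lower (14.5%) calls, against 2517 and 1459 with the deposited scaling. In 14 of the 17 genes all mutant values lay under all wild-type values, against 19.1% of all genes. The 6 genes that did not pass had log2 fold changes between -2.02 and 0.30, and 14 of 17 were lower at an unadjusted p under 0.05 (17.8% of all genes). The filter took the mean over all samples. In the mutant samples alone, HIST1H2BN, HIST2H2BC, HIST1H3B, HIST1H3D, HIST1H3H and HIST3H2BB averaged only 5.14 to 9.95. They thus entered the test through the line in which they were higher. Among them HIST1H2BN, HIST2H2BC and HIST1H3H were called, and the values of these genes are not independent of the filter. HIST1H1E entered likewise through the mutant line, averaging 14.1 normalized counts there and 9.60 in the wild-type line.

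The quasi-likelihood test of edgeR called 9 of the 17 genes lower and 0 higher (11.2% and 12.3% of all genes), and DESeq2 called 11 lower and 0 higher (20.6% and 21.7% of all genes). The calls depended on single libraries. Without mutant 2, mutant 3, wild-type 2 or wild-type 3, limma and edgeR called 0 of the 17 genes, with limma giving 12, 13, 11 and 14 lower at an unadjusted p under 0.05, while DESeq2 called 10, 10, 8 and 8. In the same limma fits over all genes 6, 5, 0 and 0 were called higher and 17, 15, 0 and 0 lower, so the loss was not limited to histone genes. Without replicate 1 of both lines, limma called 15 of the 17 lower and 0 higher, including all 11 named above as called, beside 4231 lower (29.1%) and 7713 higher (53.1%) over all genes.

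**Figure D2:**
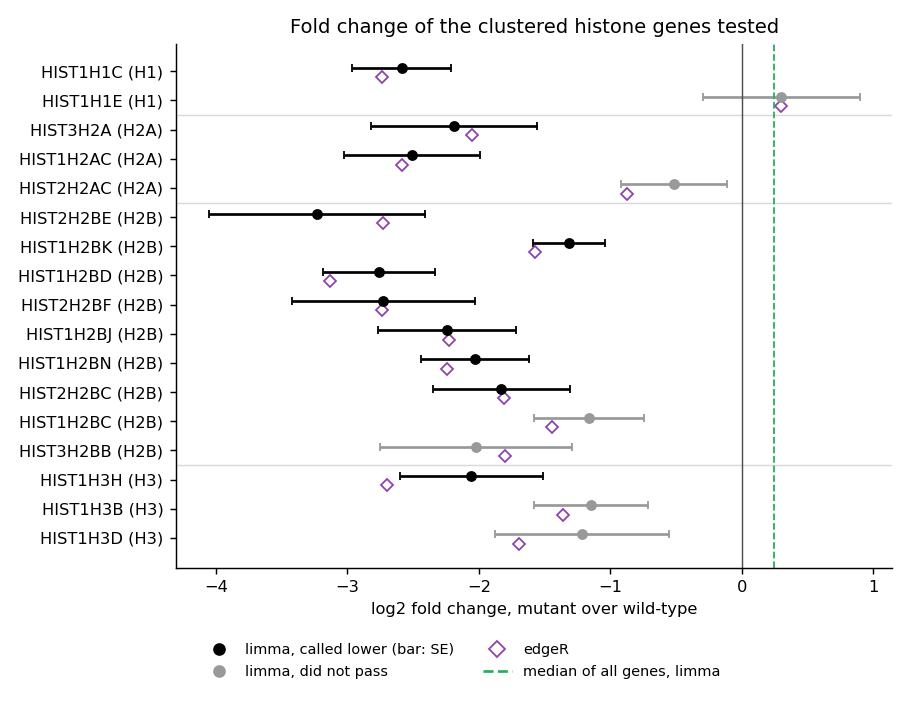
Log2 fold change of mutant over wild-type for the 17 clustered histone genes tested, by histone type from top to bottom (circles: limma with SE bars, black where called lower and grey where the test was not passed; open diamonds: edgeR). All genes but HIST1H1E lie left of 0, and the dashed line is the median of all genes, 0.24.

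HIST1H1C, which codes for the linker histone H1.2, had 149, 64.2 and 75.3 normalized counts in the mutant samples, against 435, 537 and 693 in the wild-type samples. Every mutant value was well under the lowest wild-type value. The log2 fold change was -2.59 ± 0.37 (SE, limma adjusted p = 0.0221), the smallest adjusted p among the histone genes. HIST1H1E, the gene of H1.4, had 10.1, 5.53 and 26.5 normalized counts in the mutant samples and 13.5, 8.64 and 6.66 in the wild-type samples. The groups overlapped, and mutant 3 alone was clearly above the others. Its log2 fold change of 0.30 ± 0.60 did not pass (limma adjusted p = 0.698) and ran from -0.26 without mutant 3 to 0.77 without mutant 2. Per kb of annotated exon, HIST1H1C averaged 132 normalized counts in the mutant line and 759 in the wild-type line, and HIST1H1E 17.9 and 12.2.

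Among H2A genes, HIST3H2A had 209.9, 35.4 and 66.9 normalized counts in the mutant samples, against 250.4, 397 and 495 in the wild-type samples. Mutant 1 came close to wild-type 1, and the groups did not overlap (log2 fold change -2.19 ± 0.63 (SE), limma adjusted p = 0.0449). This call was not made by edgeR. HIST1H2AC had 68.9, 21.0 and 24.4 normalized counts in the mutant samples, against 124, 234 and 245 in the wild-type samples, with a log2 fold change of -2.51 ± 0.52 (limma adjusted p = 0.0404). HIST2H2AC behaved differently in its values: it had 29.7, 31.0 and 27.6 normalized counts in the mutant samples and 25.8, 45.8 and 64.9 in the wild-type samples. Wild-type 1 lay under all mutant samples, so the groups overlapped, and the log2 fold change of -0.52 ± 0.40 did not pass (limma adjusted p = 0.320). With replicate 1 left out of both lines it passed (log2 fold change -0.88, limma adjusted p = 0.0160), and over all alternatives the adjusted p ran from 0.0160 to 0.725.

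H2B was the type with most genes tested, and all 9 had mutant values under all wild-type values. HIST2H2BE, the clustered histone gene with the highest mean normalized count, had 352, 42.0 and 41.4 in the mutant samples, against 493, 1034 and 1049 in the wild-type samples. Mutant 2 and mutant 3 lay far under mutant 1, which was nearer to wild-type 1 than to them. The log2 fold change of -3.23 ± 0.82 (SE, limma adjusted p = 0.0415) was the largest decrease among the tested members and also the one with the largest SE. It was not called by edgeR, DESeq2 gave it no adjusted p, and it stood at -4.61 with replicate 1 left out of both lines. HIST1H2BD had 113, 71.9 and 112 normalized counts in the mutant samples, against 351, 907 and 913 in the wild-type samples (log2 fold change -2.76 ± 0.43, limma adjusted p = 0.0256). Here the 3 mutant samples were close together and wild-type 1 was under the other wild-type samples.

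HIST1H2BK differed from these in how its values lay. It had 193, 299 and 297 normalized counts in the mutant samples, against 508, 694 and 749 in the wild-type samples, so that in both lines replicate 1 was the lowest sample. Its log2 fold change of -1.31 ± 0.27 (SE, limma adjusted p = 0.0404) was the smallest among the called genes, with the smallest SE. Per kb of exon it was the most abundant clustered histone gene in both lines, with 531 normalized counts in the mutant and 1314 in the wild-type line. However, 22.5% of its 100-base windows also occur in other histone transcripts. How reads that match several copies were counted is not given in the sources used here, so its level is uncertain to that extent. HIST2H2BF had 44.9, 7.75 and 13.8 normalized counts in the mutant samples, against 58.9, 162 and 175 in the wild-type samples (log2 fold change -2.73 ± 0.70, limma adjusted p = 0.0417). HIST1H2BJ had 47.4, 12.2 and 15.9 in the mutant samples, against 79.8, 115 and 122 in the wild-type samples (-2.24 ± 0.53, limma adjusted p = 0.0405). In both genes mutant 1 was the highest of the mutant samples and wild-type 1 the lowest of the wild-type samples.

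The remaining H2B genes were less abundant. HIST1H2BN had 12.6, 5.53 and 11.7 normalized counts in the mutant samples, against 38.1, 38.9 and 48.3 in the wild-type samples (log2 fold change -2.03 ± 0.41 (SE), limma adjusted p = 0.0404). HIST2H2BC had 18.3, 4.43 and 6.37 in the mutant samples, against 33.1, 32.0 and 29.98 in the wild-type samples (-1.83 ± 0.52, limma adjusted p = 0.0444). It is annotated as a pseudogene, it was not called by edgeR, and 77.3% of its windows occur in other histone transcripts, so its reads are uncertain. HIST1H2BC did not pass, with 10.1, 7.75 and 17.0 normalized counts in the mutant samples, against 23.3, 34.6 and 21.6 in the wild-type samples (-1.16 ± 0.42, limma adjusted p = 0.0682). It was called lower by edgeR (adjusted p = 0.0486) and DESeq2 (adjusted p = 0.0420). Its annotated span overlaps HFE, the gene of an iron uptake regulator on the opposite strand, and the strand setting of the counting is not given in the sources used here. HIST3H2BB did not pass either, with 12.6, 2.21 and 1.06 normalized counts in the mutant samples, against 14.7, 25.9 and 13.3 in the wild-type samples (-2.02 ± 0.73, limma adjusted p = 0.0687).

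**Figure D3:**
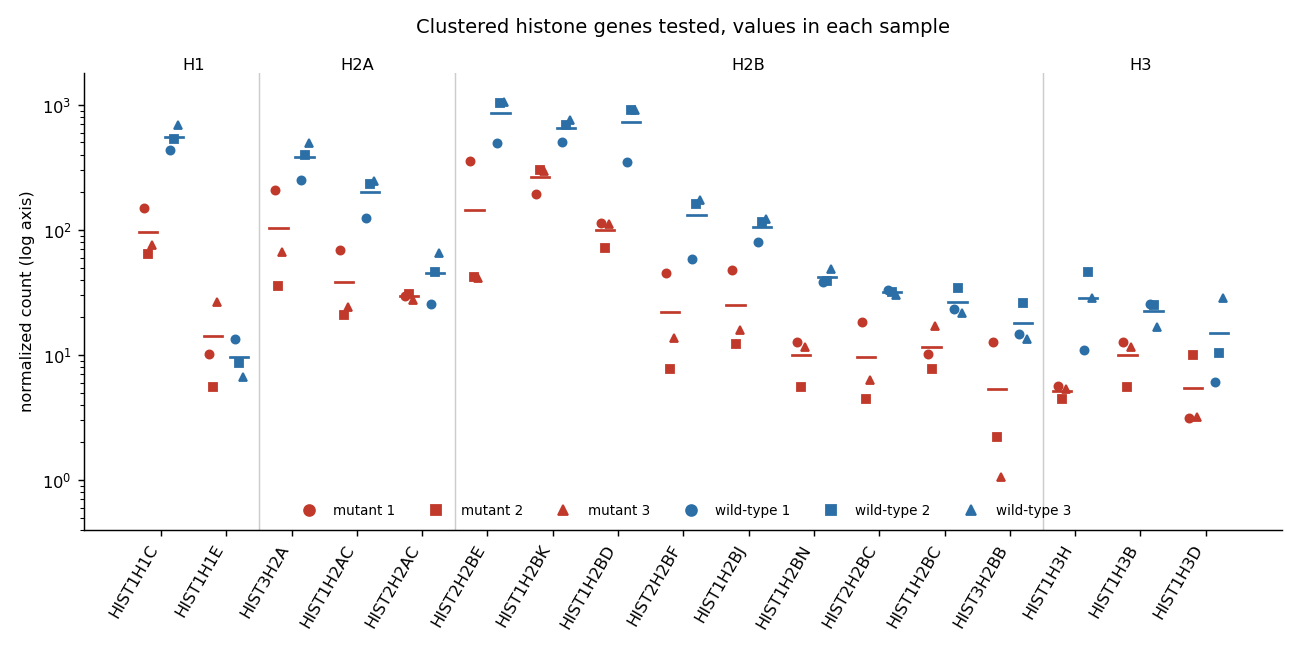
Normalized counts (log axis) of the 17 clustered histone genes tested in each sample, with mutant samples left of wild-type samples within a gene, circles, squares and triangles for replicates 1, 2 and 3, and bars for the mean of a line. In 14 genes no mutant value reaches the lowest wild-type value, and HIST1H1E, HIST2H2AC and HIST1H3D overlap.

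H3 genes, all of them for replication-dependent H3, stood at low counts. HIST1H3H had 5.69, 4.43 and 5.31 normalized counts in the mutant samples, against 11.0, 45.8 and 28.3 in the wild-type samples. The mutant values were tight and the wild-type values spread widely, with a log2 fold change of -2.06 ± 0.55 (SE, limma adjusted p = 0.0426). HIST1H3B, known for mutations in childhood brainstem gliomas, had 12.6, 5.53 and 11.7 in the mutant samples, against 25.8, 25.1 and 16.7 in the wild-type samples, and did not pass (-1.15 ± 0.44, limma adjusted p = 0.0760). HIST1H3D had 3.16, 9.96 and 3.18 in the mutant samples and 6.14, 10.4 and 28.3 in the wild-type samples, with overlap (-1.21 ± 0.66, limma adjusted p = 0.173). On the log2(value + 1) scale the change of such low genes is understated.

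H4 genes were near the limit of what these libraries could show. The 10 H4 genes averaged between 0.558 and 4.38 normalized counts over the 6 samples, and none was tested. HIST1H4E, the highest, had 5.69, 3.32 and 0 normalized counts in the mutant samples and 3.68, 6.91 and 6.66 in the wild-type samples. HIST1H4K had 1.90, 3.32 and 3.18 in the mutant samples and 4.91, 4.32 and 6.66 in the wild-type samples, and 91.3% of its windows are shared with other histone transcripts. HIST1H4D had 1.26, 2.21 and 7.43 in the mutant samples and 3.68, 5.18 and 0 in the wild-type samples. Of the H4 genes only HIST1H4K had all mutant values under all wild-type values, on 3 to 5 reads in each sample. A difference between the lines was not tested for H4 at these low counts. All 26 genes under the filter together gave 49.96, 62.0 and 118 normalized counts in the mutant samples and 77.3, 89.9 and 83.3 in the wild-type samples, so their sum overlapped, with mutant 3 the highest sample and mutant 1 the lowest.

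The genes with high counts were mostly those known for polyadenylated transcripts. Of 10 clustered histone genes listed for such transcripts, 9 were in the table and 8 were tested: 7 were called lower, 0 higher, and HIST1H2BC did not pass with limma, with a median log2 fold change of -2.38. By edgeR 6 of the 8 were called lower, and after TMM rescaling 8. Per kb of exon the 9 genes had a median level of 131 normalized counts over the 6 samples, beside 6.93 for the other members with a length. This list was drawn up with earlier results of these data known. Its 9 genes summed to 1143, 553 and 653 normalized counts in the mutant samples, against 2266, 3953 and 4287 in the wild-type samples. The other 34 genes summed to 200, 138 and 223 in the mutant samples, against 303, 485 and 495 in the wild-type samples. Of their 9 tested genes, 4 were called lower and 0 higher, with a median of -1.83. The shares over all genes tested were 10.0% lower and 17.3% higher. HIST1H2BN, HIST2H2BC and HIST1H3H, all called, and HIST1H3B, HIST1H3D and HIST3H2BB entered the test through the wild-type line. The count and median of these other genes thus depend on the filter. HIST4H4 is on the list too but was hardly seen, with a highest value of 2.12 normalized counts, in mutant 3.

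The annotation was also split by how far each gene extends past its stem-loop. In 14 genes the annotated span runs 100 bases or more beyond it, introns included, and 10 of these were tested, with 8 called lower, 0 higher and a median log2 fold change of -2.22. In 26 genes the annotation ends at the stem-loop, and 6 of these were tested, with 2 called lower (HIST1H1C and HIST1H2BK), 0 higher and a median of -1.18. The tested genes that entered through the wild-type line were HIST1H2BN, HIST1H3H and HIST3H2BB in the first group and HIST1H3B and HIST1H3D in the second. The difference between these groups was not tested. By group on the chromosomes, 7 of 11 tested HIST1 genes, 3 of 4 tested HIST2 genes and 1 of 2 tested HIST3 genes fell, with medians of -2.03, -2.28 and -2.11. All these counts stand beside 10.0% of all genes tested called lower and 17.3% called higher.

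In 8 pairs the members start back to back on opposite strands, with 169 to 250 bases between the annotated starts, and the partners of some pairs differed widely in level. Others did not, such as HIST1H2AM and HIST1H2BO, with 9.09, 11.4 and 17.4 against 14.9, 7.11 and 6.82 normalized counts per kb of exon in the mutant samples and 17.6, 21.3 and 13.7 against 23.7, 31.5 and 25.0 in the wild-type samples. HIST1H2BK had 390, 604 and 600.3 normalized counts per kb of exon in the mutant samples, against 1027, 1402 and 1514 in the wild-type samples. Its partner HIST1H2AH, which starts 250 bases away, had 5.54, 12.1 and 13.9 per kb in the mutant samples and 2.69, 7.56 and 3.64 in the wild-type samples. HIST2H2BE had 158, 18.9 and 18.6 per kb in the mutant samples, against 222, 465 and 472 in the wild-type samples, and its partner HIST2H2AC had 60.2, 62.7 and 55.9 per kb in the mutant samples and 52.2, 92.7 and 131 in the wild-type samples. In mutant 2 and mutant 3 the order of these partners per kb was thus the reverse of that in the wild-type samples, and no test of this difference was run. The reversal came with the division by annotated exon length, 2224 bases for HIST2H2BE and 494 for HIST2H2AC. In normalized counts HIST2H2BE stayed above HIST2H2AC in mutant 2 (42.0 against 31.0) and mutant 3 (41.4 against 27.6). For HIST1H2BJ and HIST1H2AG the same held per kb. HIST1H2BJ had 45.3, 11.6 and 15.2 per kb in the mutant samples, against 76.3, 109.9 and 116 in the wild-type samples. HIST1H2AG had 3.85, 20.2 and 32.3 per kb in the mutant samples and 14.9, 17.5 and 16.9 in the wild-type samples. In normalized counts HIST1H2BJ did not lie under HIST1H2AG in mutant 2 (12.2 against 9.96) or mutant 3 (15.9 for each).

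**Figure D4:**
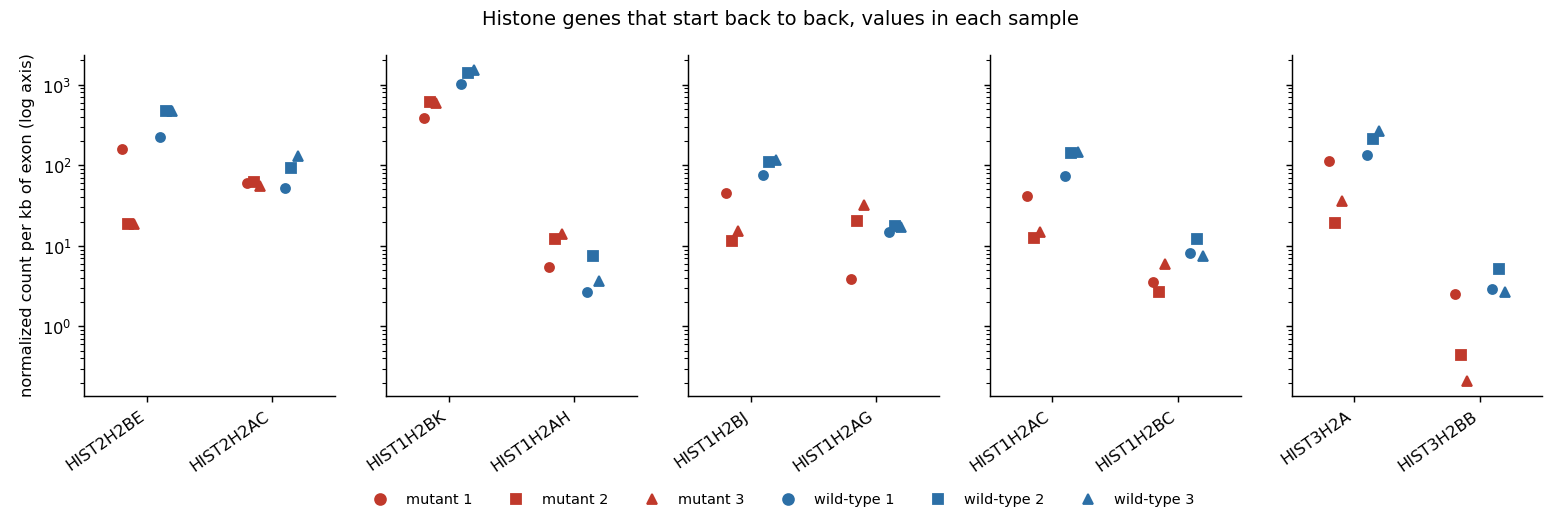
Normalized counts per kb of annotated exon (log axis) in each sample for 5 pairs of histone genes that start back to back, mutant samples left of wild-type samples within a gene. HIST1H2BK lies at 390 to 604 in the mutant and 1027 to 1514 in the wild-type samples, while its partner HIST1H2AH stays under 14 in all of them.

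The DNA between the starts of the HIST2H2BE and HIST1H2BK pairs is shown because each stretch lies between a gene that fell and a partner that did not pass or was too low to test. Both stretches are GRCh37 reference sequence on the plus strand, the first at chr1:149858233-149858467 and the second at chr6:27114635-27114884, and the H2B gene of each pair starts at the left end and runs to the left. Capitals mark 3 motifs found on either strand: ATTTGCAT, the octamer bound by OCT1, CCAAT, bound by NF-Y, and TATAAA, the TATA box. Matches to TATAAA on the 2 strands can overlap each other.
HIST2H2BE and HIST2H2AC: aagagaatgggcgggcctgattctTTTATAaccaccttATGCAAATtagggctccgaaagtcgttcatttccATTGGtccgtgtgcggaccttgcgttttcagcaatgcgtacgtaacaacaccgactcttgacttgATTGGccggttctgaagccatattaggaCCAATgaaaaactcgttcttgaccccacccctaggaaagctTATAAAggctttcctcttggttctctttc
HIST1H2BK and HIST1H2AH: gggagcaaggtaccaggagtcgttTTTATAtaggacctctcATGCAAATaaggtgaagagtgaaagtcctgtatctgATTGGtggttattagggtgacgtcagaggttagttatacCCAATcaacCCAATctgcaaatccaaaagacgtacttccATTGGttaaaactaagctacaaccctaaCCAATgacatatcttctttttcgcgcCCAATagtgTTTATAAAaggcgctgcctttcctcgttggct
Both stretches hold 1 octamer match, with 3 matches to CCAAT in the first and 6 in the second. Of the 8 stretches, 6 held the octamer, 8 CCAAT and 5 TATAAA. In RefSeq promoters on GRCh38.p14, which run from 250 bases before to 50 bases after a gene's start, the octamer was found in 1.77% of 35116 promoters, and in 7 of 9 H2A, 10 of 13 H2B, 1 of 6 H3, 0 of 8 H4 and 0 of 2 H1 promoters among 38 members with a promoter sequence. CCAAT was found in 34.6% of all promoters and in 31 of the 38, and TATAAA in 11.5% and in 27 of the 38. Such a match is a description of the letters only, and genes with the octamer were found both among those called (HIST2H2BE, HIST1H2BK) and among those that did not pass (HIST2H2AC).

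Replicate 1 of both lines was intermediate for most members. In 13 of the 17 tested genes mutant 1 was above the mean of mutant 2 and 3, and in 14 of 17 wild-type 1 was below the mean of wild-type 2 and 3. Between mutant 1 and wild-type 1 alone, 16 of the 17 genes were lower in the mutant sample, with a median log2 difference of -0.82. Over all genes 55.6% were lower in that comparison. Between mutant 2 and wild-type 2 it was 17 of 17 (37.6% of all genes) with a median of -3.05, and between mutant 3 and wild-type 3 it was 16 of 17 (38.2% of all genes) with a median of -2.80. In the tested genes the direction was thus shared by both sets of libraries, while the median difference was smaller in replicate 1. For the genes that entered the test through the wild-type line, the filter favours a lower mutant value. Same-numbered samples were not taken as pairs, so these comparisons only describe single libraries. HIST1H2BK was the exception among the called genes, with log2 differences of -1.39, -1.21 and -1.33. What set replicate 1 of each line apart was not tested.

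The lists of other genes of histone supply are to be read against 17.3% of all genes called higher and 10.0% called lower, and against 53.1% and 29.1% with replicate 1 left out of both lines. Replication-independent histone genes, most of which are expressed outside S phase and give polyadenylated mRNA, had 4 of 11 tested members called higher and 0 lower (median log2 fold change 0.33), and 6 higher and 1 lower with replicate 1 left out of both lines. H2AFY, which codes for macroH2A1, had 3738, 9456 and 9703 normalized counts in the mutant samples, against 3018, 1973 and 2085 in the wild-type samples (1.60 ± 0.38 (SE), limma adjusted p = 0.0411). H2AFY2, H1F0 and CENPA, the genes of macroH2A2, linker histone H1.0 and the centromeric H3, were called higher as well, by 1.16, 0.99 and 0.82. H1F0 was not called by edgeR (adjusted p = 0.0563), which called 3 of the 11 higher. Histone chaperones and acetyltransferases of deposition had 9 of 25 called higher and 0 lower (median 0.84), and 21 higher and 0 lower without both libraries numbered 1. The edgeR test called 6 of the 25 higher and 0 lower. Among the 9 were NASP, a chaperone of H3 and H4 (1.67 ± 0.38, limma adjusted p = 0.0404), and ASF1B, which hands them to the replication machinery (1.15 ± 0.26, limma adjusted p = 0.0404).

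S-phase genes moved the opposite way to the histone genes. Of 36 tested, 22 were called higher and 0 lower, with a median log2 fold change of 1.09, and rescaling by TMM factors left 19 higher and 0 lower. With replicate 1 left out of both lines 35 were higher and 0 lower. PCNA, the replication clamp, had 4772, 9723 and 9630 normalized counts in the mutant samples, against 4350, 3465 and 3046 in the wild-type samples (1.09 ± 0.30 (SE), limma adjusted p = 0.0433). TYMS, which codes for thymidylate synthase, and FEN1 of lagging-strand processing rose by 1.98 and 1.84. The share of cells in S phase was not measured in these data. Between mutant 1 and wild-type 1 alone, the median difference of this list was 0.10.

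Most factors that read or process the histone messages were not called. SLBP, the stem-loop binding protein, had 3774, 6974 and 7242 normalized counts in the mutant samples, against 3765, 3452 and 3359 in the wild-type samples. Mutant 1 and wild-type 1 were nearly equal, and the log2 fold change of 0.71 ± 0.26 (SE) did not pass (limma adjusted p = 0.0697). Of 23 histone mRNA 3′ end factors tested, 5 were called higher and 1 lower, and 16 and 5 without both libraries numbered 1, where 17.3% and 10.0% of all genes, and 53.1% and 29.1% without those libraries, were called higher and lower. CSTF2 and CSTF2T, paralogous subunits of the cleavage stimulation factor, CASP8AP2, a component of the histone locus body, and NCBP1 of the cap-binding complex were among the 5 (0.81, 2.22, 2.06 and 2.32). The edgeR test called 3 of the 23 higher and 1 lower, and did not call CSTF2 (edgeR adjusted p = 0.0551). For NCBP1 the groups overlapped. Of 21 histone mRNA decay factors 2 were called higher and 0 lower, PAPD5, a terminal nucleotidyltransferase, by 1.84, and ERI1, the exonuclease that trims the stem-loop end, by 0.81. By edgeR 0 of the 21 were called, with 5 higher and 5 lower at an unadjusted p under 0.05, and without both libraries numbered 1 limma called 12 higher and 6 lower.

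NPAT, the coactivator of histone gene transcription that cyclin E and CDK2 phosphorylate, had 1133, 1987 and 1725 normalized counts in the mutant samples and 1189, 581 and 408 in the wild-type samples. The groups overlapped and it did not pass (log2 fold change 1.26 ± 0.41 (SE), limma adjusted p = 0.0546). Of 19 histone gene transcription factors tested, 5 were called higher and 0 lower, while rescaling by TMM factors gave 4 higher and 1 lower, and leaving out both libraries numbered 1 gave 12 higher and 4 lower. CCNE2, a cyclin E, had 557, 2938 and 2887 normalized counts in the mutant samples, against 500, 175 and 133 in the wild-type samples (2.88 ± 0.75, limma adjusted p = 0.0419). E2F3 and E2F2, activators of S-phase genes, and NFYB, a subunit of the CCAAT-binding factor, rose by 1.86, 1.43 and 1.17.

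**Figure D5:**
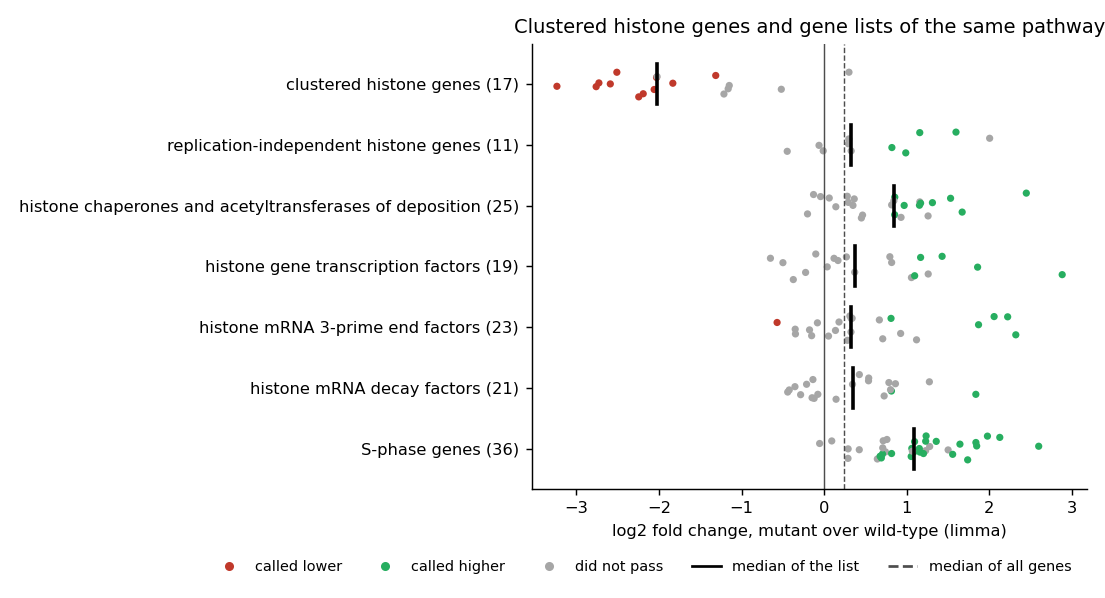
Log2 fold change of mutant over wild-type (limma) for the 17 clustered histone genes tested and the tested members of 6 gene lists of the same pathway, 1 point for each gene (number of genes in brackets; red: called lower, green: called higher, grey: not passed; black bar: median of the list; dashed line: median of all genes, 0.24). The histone genes have a median of -2.03 and the S-phase genes of 1.09.

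Neighbours of the histone genes were compared too. Of 30 non-histone genes of the HIST1 region, 21 were tested, with 4 called higher, 0 lower and a median log2 fold change of 0.13. Over all genes 17.3% were called higher and 10.0% lower. HFE had 36.05, 143 and 157 normalized counts in the mutant samples, against 20.9, 6.05 and 6.66 in the wild-type samples (3.16 ± 0.70 (SE), limma adjusted p = 0.0404), and ZNF322, ZNF187 and LRRC16A rose by 1.39, 1.67 and 1.13. LRRC16A was not called by edgeR (adjusted p = 0.0546). With replicate 1 left out of both lines, 9 of these neighbours were called higher and 7 lower, beside 53.1% and 29.1% of all genes. RNAs without a polyA tail gave a small comparison: 4 of 22 listed genes were tested and 0 were called in either direction by limma, by edgeR or after TMM rescaling (1 lower at an unadjusted p under 0.05 by limma and 0 by edgeR). With replicate 1 left out of both lines limma called 1 higher and 1 lower. MALAT1 had 6863, 1847 and 1534 normalized counts in the mutant samples and 9681, 6610 and 4839 in the wild-type samples. NEAT1 had 1816, 4956 and 4476 in the mutant samples and 5907, 3076 and 2813 in the wild-type samples. In all 4 genes the groups overlapped. The part of library selection in the low level of H3 and H4 genes was not tested.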

How the data were processed

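RNA-seq libraries of 2 HCT116 lines, 3 replicates each, were mapped by the authors to hg19 with TopHat2 2.1.0, and HTSeq counts per gene were tested with DESeq. CASAVA 1.8.2 is named in the submitters' processing notes. The gene annotation they counted on is not given in the sources used here. The deposited signal values are read counts per gene after the authors' division by a size factor for each sample, and whole reads were recovered for 100% of values within 0.001. The authors' log2 ratios and p-values of the same table were not used.

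Genes averaging 10 or more normalized counts were tested with limma 3.58.1 (eBayes with trend, R 4.3.3) on log2(value + 1), Benjamini-Hochberg adjusted over 14539 genes, with calls at an adjusted p under 0.05. Alternatives were edgeR 4.0.16 and DESeq2 1.42.0 on the recovered reads, TMM rescaling, other filters and pseudocounts, a replicate block and removal of libraries. Removal of single libraries with edgeR and DESeq2 was chosen after seeing the data. Tested on simulated counts for 14539 genes, limma made 4 false calls and found 10% of changes of 1.5-fold, 50% of 2-fold, 100% of 4-fold and 100% of 8-fold.

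The members and gene lists were chosen with earlier results of these data known. Named genes were the 3 with the highest mean in each histone type, the 4 with the smallest p in each direction, the polyadenylated list, up to 4 called members with the smallest p in each pathway list, and SLBP, NPAT, PCNA and CTNNB1. An S-phase gene that the rule names is not reported here. HIST2H2BF, HIST2H2BC, HIST3H2BB, members described in pairs, CD68, PTPRC, MALAT1 and NEAT1 were added after their values were seen. Of 5 listed testis histone genes 0 had a row in the table. Exon lengths and positions came from GENCODE 44 on GRCh37, promoters from RefSeq. Figures used matplotlib 3.10.9 in Python 3.11.15.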

Additional observations from a re-analysis of the deposited data

How the results depend on the processing

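Of the 17 tested clustered histone genes, 11 were called lower in the mutant line, and 0 were called higher under any alternative. TMM rescaling, other pseudocounts, the absence of a filter and the removal of replicate 1 of both lines kept all 11. A minimum mean of 50 normalized counts tested 8 of the 11 and kept these 8. The count without 1 library ran from 0 to 13 (limma), 0 to 14 (edgeR) and 8 to 13 (DESeq2). Over all genes it ran from 0 to 5181 higher and 0 to 3080 lower, against 2517 and 1459. Removal of replicate 1 of both lines gave 7713 higher and 4231 lower over all genes and a median of -2.66 for the histone genes. DESeq2 called 2999 genes lower. The median of all genes, 0.24, became 0.0135 with edgeR, 0.0057 with DESeq2 and 0.0134 with TMM rescaling. The median of the histone genes, -2.03, became -0.61 with no filter, where 43 genes entered, and -1.28 with a pseudocount of 10, which shrinks low genes by construction. HIST1H1E, at 0.30, ran from -0.26 to 0.77 with 1 library left out. CTNNB1 passed without wild-type 1 (0.53, limma adjusted p = 0.0134) and with both libraries numbered 1 left out (0.52, limma adjusted p = 0.000104), its adjusted p ranging up to 0.655. Where no reason is named, the cause was not tested.

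A replicate block called 0 histone genes and 0 genes higher or lower over all genes, with 12 histone genes lower at an unadjusted p under 0.05. Same-numbered samples did not deviate together (correlations of -0.53, -0.43 and -0.31), so the numbers were not taken as a pairing, and a call lost under the block does not show a weaker effect.

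The genes under the filter, all H4 genes among them, hold few reads per sample, and the reason for these low counts was not tested. Self-test shares do not carry over to the data, where replicate 1 of each line departs from the others.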
